A study of Mus musculus with 28 samples.

Results

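The change that loss of 1 copy of Myt1l made in the adult prefrontal cortex (PFC) was compared, gene by gene, with the change it made in the cortex of embryos. The quantity is a difference of differences: heterozygous (Het) minus wild type (WT) in adult PFC, minus Het minus WT in embryonic cortex at E14.5 (the embryonic day). A value above 0 means that the Het change was more positive in adults, and a value below 0 that it was more positive in embryos. All genes listed in the deposited tables of both ages entered, joined by Ensembl identifier. These were 13071 of the 14879 genes listed in either table, and 11267 of them passed a filter of at least 1 CPM (reads set to a common total per library) in at least 6 libraries of each age.

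The mice came from a Myt1l knockout line, and how its allele was made is not given in the sources used here. Bulk RNA was sequenced from 4 groups of 6 libraries: WT and Het E14.5 cortex, and WT and Het adult PFC. No treatment is named, the age of the adults is given only as adult, and each library carries an animal identifier of its own. No library is shared between the ages, so each age has its own WT controls, and the tables were scaled separately, so that only Het minus WT within a table is compared. By label, 3 of 6 Het and 5 of 6 WT embryos were female, and each adult group held 3 females and 3 males. The 4 homozygous embryo libraries of the study entered only an alternative fit.

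MYT1L is a zinc-finger transcription factor of neurons. It is switched on as neurons leave the cell cycle, it stays on in adult neurons, and it represses genes of progenitors and of other lineages through histone deacetylase corepressors. In humans, loss of 1 copy causes a syndrome of intellectual disability. At E14.5 the cortex still holds dividing progenitors beside newborn neurons, while the adult PFC holds mature neurons and glia. In bulk RNA, fewer cells of a type and less RNA per cell cannot be told apart.

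The libraries carried the markers of their tissue. Pax6, a progenitor transcription factor, measured 88.8 to 114 CPM in E14.5 libraries and 6.77 to 10.8 CPM in adult ones. Slc17a7, the vesicular glutamate transporter of mature cortical neurons, measured 1.94 to 5.02 CPM and 227 to 299.9 CPM in the same order. A pair of embryo libraries, labelled Het F10 and Het M11, went against their sex labels: Ddx3y, a Y-linked gene, was at 21.6 CPM in the first and at 0 in the second. Ttr, the main transcript of choroid plexus, ran from 1361 to 5081 CPM across E14.5 libraries and did not exceed 1.02 CPM in adults.

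Promoter sequence of 4 of the 12 genes with the most stable differences (called whichever 1 of the 24 libraries was left out) is shown first, because MYT1L and its relatives bind the letters AAGTT. The 4 were picked because their windows hold those letters. Of the 12 genes, 11 had windows in the table, 5 with a match (these 4 and Serinc2) and 6 without: Cit, Dusp8, Ifngr2, Mrps24, Pom121 and Rsrp1. The windows span 300 bases around the start of each gene (RefSeq, GRCm38.p6), and capitals mark AAGTT or its reverse complement AACTT. Fdx1, Arf5 and Snapc1 were higher in Het embryos and Prpf8 was lower, and none of these genes was called in adult Het PFC. The windows are chr9:51963553-51963852 on the minus strand for Fdx1, chr6:28423354-28423653 for Arf5, chr12:73964247-73964546 for Snapc1 and chr11:75486527-75486826 for Prpf8, the last 3 on the plus strand.
Fdx1: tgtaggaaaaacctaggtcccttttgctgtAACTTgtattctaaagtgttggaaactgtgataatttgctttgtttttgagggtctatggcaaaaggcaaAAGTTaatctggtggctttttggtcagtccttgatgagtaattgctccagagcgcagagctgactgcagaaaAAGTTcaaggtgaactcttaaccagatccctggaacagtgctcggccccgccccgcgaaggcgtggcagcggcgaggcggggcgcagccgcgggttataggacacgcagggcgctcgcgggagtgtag
Arf5: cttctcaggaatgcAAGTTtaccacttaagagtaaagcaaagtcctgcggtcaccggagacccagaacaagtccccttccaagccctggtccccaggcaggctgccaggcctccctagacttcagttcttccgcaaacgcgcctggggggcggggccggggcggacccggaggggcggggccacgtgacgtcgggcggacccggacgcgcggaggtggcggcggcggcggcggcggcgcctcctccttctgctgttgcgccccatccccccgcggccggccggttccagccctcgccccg
Snapc1: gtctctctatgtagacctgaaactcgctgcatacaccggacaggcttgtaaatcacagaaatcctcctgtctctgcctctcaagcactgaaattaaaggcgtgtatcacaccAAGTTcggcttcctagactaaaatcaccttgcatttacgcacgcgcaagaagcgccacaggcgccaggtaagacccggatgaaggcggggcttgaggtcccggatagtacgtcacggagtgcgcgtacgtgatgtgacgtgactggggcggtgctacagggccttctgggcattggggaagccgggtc
Prpf8: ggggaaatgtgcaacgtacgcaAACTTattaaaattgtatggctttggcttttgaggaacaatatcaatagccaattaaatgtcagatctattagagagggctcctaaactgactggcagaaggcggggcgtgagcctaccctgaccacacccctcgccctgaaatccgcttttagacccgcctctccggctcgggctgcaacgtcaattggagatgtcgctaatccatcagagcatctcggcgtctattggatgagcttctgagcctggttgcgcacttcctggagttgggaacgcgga
The Fdx1 window held 3 matches and each of the other windows printed 1. Windows were found by symbol for 8980 of the 11267 tested genes, for 47 of 62 genes called with a difference above 0 and for 54 of 71 called below 0. A match was held by 31% of 11632 windows of tested genes, 29.1% of 55 windows of genes called above 0 and 26.6% of 64 windows of genes called below 0. The shares lay close together, and a match is a description of the letters, not of a binding site.

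The Myt1l transcript itself was lower on average in Het libraries at both ages. The gene (ENSMUSG00000061911) lies on chromosome 12 from 29528384 to 29923213, plus strand, on GRCm38. Adult WT libraries ran from 146 to 168 CPM with a median of 156, and adult Het libraries from 105 to 121 with a median of 116. No adult Het library reached the lowest WT library, and the Het mean was 72.3% of the WT mean (exact two-sided permutation test, p = 0.00216, the smallest that 6 against 6 libraries allow). E14.5 WT libraries ran from 45.9 to 66.6 CPM with a median of 54.4, and Het libraries from 30.6 to 59.5 with a median of 43.6. There the groups overlapped, 5 Het libraries were under the WT mean and 1 above it, and the Het mean was 77.1% of the WT mean (exact two-sided permutation test, p = 0.0433). The lowest Het values, 30.8 and 30.6 CPM, were those of the libraries labelled F10 and M11, whose Ddx3y went against their sex labels. The other Het embryos measured 41.1 to 59.5 CPM. Both permutation tests took values that the authors had adjusted before deposit, and neither accounted for sex. The adjustment and the unequal sexes of the embryos leave it uncertain whether libraries could trade labels, as the test assumes.

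On the log2(CPM + 0.5) scale used for all tests, Myt1l changed by -0.47 (SE 0.12) in adults and by -0.38 (SE 0.13) in embryos. In the joint fit over all genes, neither change passed an adjusted p of 0.05 (limma with Benjamini-Hochberg adjustment, 0.122 and 0.0614). With a spread estimated for each age alone, the adult change passed (adjusted p = 1.07e-04) and the embryo change did not (0.201). The difference between ages was -0.09 (SE 0.18, 95% interval -0.45 to 0.28, adjusted p = 0.852), and it was -0.31 without the libraries labelled Het F10 and Het M11. The relatives of Myt1l were not called either. Myt1, a progenitor and oligodendrocyte zinc-finger factor, had a difference of 0.46 (95% interval -0.07 to 0.99) and St18 of 0.23 (-0.26 to 0.71).

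A difference between the ages was called for 133 of 11267 genes, or 1.18% (limma, Benjamini-Hochberg adjusted p under 0.05). It lay above 0 for 62 genes (0.55%) and below 0 for 71 genes (0.63%). With each library centred on its own median, which moved the median difference of all genes by only 0.017 on the log2 scale, 60 genes lay above 0 and 37 below. The sizes were moderate: the median was 0.554, 83 genes exceeded 0.5, and 4 exceeded 1 on the log2 scale, namely Socs3, Pex7, Ndfip1 and Fdx1, all below 0. An unadjusted p under 0.05 was reached by 1856 genes (16.5%), 904 above 0 (8.02%) and 952 below 0 (8.45%).

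Most of these genes were called in embryos and not in adults. Of the 133, 105 were also called in the E14.5 comparison, 4 in the adult comparison, none in both and 24 in neither. The change at each age is a term of the difference, so these counts describe the calls and are no separate support for them. Among all tested genes, 995 (8.83%) were called in Het embryos, 567 higher (5.03%) and 428 lower (3.8%), which became 363 higher and 552 lower after median centring. In adults 9 genes (0.0799%) were called, 8 higher and 1 lower, and 1095 reached an unadjusted p under 0.05. The embryo count was 320 without the library labelled E14.5 Het F07, 551 without E14.5 WT F04 and 580 without E14.5 Het F02, and the adult count ran from 2 to 26 over the fits that left out 1 library. A spread estimated for each age alone called 44 genes in adults and 395 in embryos.

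The estimates at the 2 ages had opposite signs in 120 of the 133 genes, 67 of them higher in Het embryos and lower in Het adults and 53 the reverse. Over all tested genes, 45.5% had opposite signs. A called difference favours opposite signs, so that count is read as a description only. A strict reversal, with a called change at each age in opposite directions, was found for no gene by limma over all 24 libraries, for 7 genes in libraries labelled female, for 1 with the Hom libraries added and for 1 without adult Het M05. No gene was called in the same direction at both ages (2 with voom weights, which gave no reversal). At an unadjusted p under 0.05 at each age, 96 tested genes had opposite signs and 164 the same sign, and 49 of the 96 were among the 133. The 13 called genes with the same sign at both ages, such as Pkm and the tubulin genes Tubb4b and Tuba4a, had an adult change near 0 beside a larger one in embryos. Across all tested genes the adult and E14.5 changes had a Pearson r of 0.0437 and a Spearman coefficient of 0.0745, given as a description, since genes are not independent replicates.

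**Figure D1:**
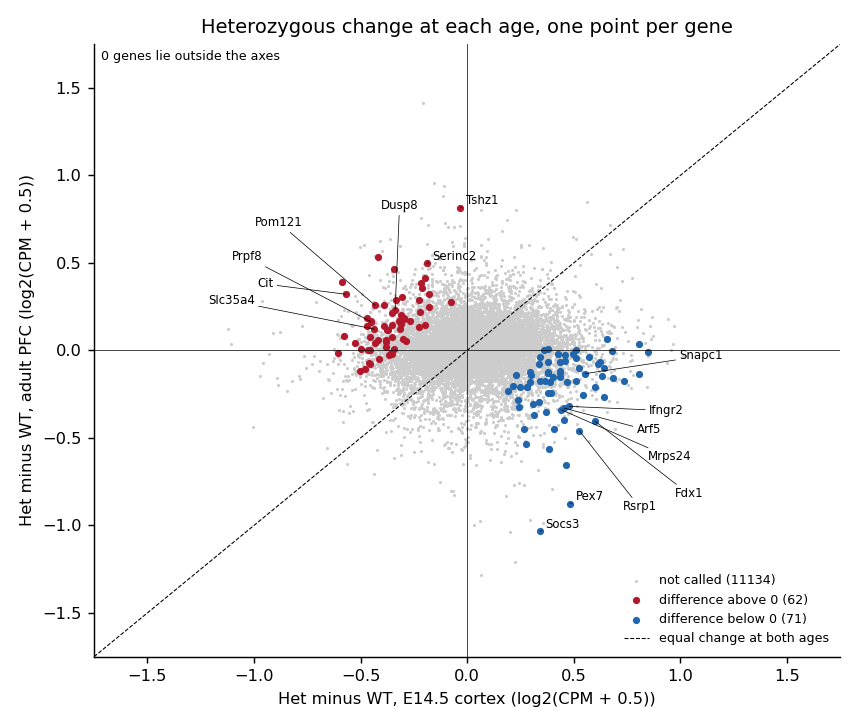
Het minus WT in E14.5 cortex (x axis) against adult PFC (y axis), both in log2(CPM + 0.5), 1 point per tested gene. The 62 genes called above 0 (red) lie to the upper left of the dashed line of equal change and the 71 called below 0 (blue) to the lower right, and most of both lie closer to the horizontal axis than to the vertical one.

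A set of 12 genes stayed called whichever of the 24 libraries was left out: Cit, Pom121, Dusp8, Prpf8, Serinc2 and Slc35a4 above 0, and Ifngr2, Snapc1, Rsrp1, Arf5, Fdx1 and Mrps24 below 0. They were picked after these fits had been seen, and the rule for naming genes would have chosen only Cit, Pom121, Serinc2, Fdx1 and Rsrp1. Their calls also held when each library was corrected for trends on GC content and transcript length, and when the libraries labelled Het F10 and Het M11 were left out. They did not hold without all 3 adult Het females (F02, F04 and F07), a fit added after the data were seen that leaves 3 adult Het males. None of the 12 was called there (limma, adjusted p 0.125 to 0.292), and all kept their direction. In that fit the adult sex term rests on the WT libraries alone, so loss of libraries and loss of females cannot be told apart.

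Among the 6 genes above 0, Cit had the lowest p. Cit (ENSMUSG00000029516, chromosome 5, 115845278 to 116008947) encodes citron kinase, which acts at the midbody in cytokinesis. At E14.5 its WT libraries ran from 36.3 to 47.97 CPM (median 41.6) and its Het libraries from 24.5 to 38.3 (median 27.2). In adults WT ran from 75.5 to 103 CPM (median 85.1) and Het from 83.9 to 136 (median 112.5). All 6 Het embryos lay below the WT mean and 5 of 6 Het adults above it, though the ranges touched at both ages. The E14.5 change was -0.57 (SE 0.11, adjusted p = 0.00206), the adult change 0.32 (SE 0.10, adjusted p = 0.204) and the difference 0.89 (SE 0.15, 95% interval 0.59 to 1.19, adjusted p = 0.00646).

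Pom121 encodes a membrane protein that anchors the nuclear pore. In Het embryos it ran from 34.1 to 43.7 CPM against 42.0 to 55.0 in WT, with medians of 34.8 and 49.9. In adults the order turned: each Het library, at 12.4 to 14.3 CPM, lay above each WT library, at 9.42 to 12.3. Pom121 changed by -0.43 in embryos (adjusted p = 0.0066) and by 0.26 in adults (adjusted p = 0.287), and the difference was 0.69 (SE 0.13, adjusted p = 0.0167). Dusp8, a phosphatase that switches off JNK-type MAP kinases, went from a WT median of 203 CPM to a Het median of 156 in embryos and from 160.4 to 187 in adults. Its difference was 0.57 (SE 0.11, adjusted p = 0.0151), with 6 of 6 Het embryos below and 5 of 6 Het adults above their WT mean.

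Prpf8, the core protein of the spliceosome, ran from 135 to 164 CPM in WT embryos and from 95.7 to 127 in Het embryos. Its adult libraries overlapped, at 27.6 to 33.8 CPM in WT and 28.3 to 41.4 in Het. The difference of 0.62 (SE 0.12, adjusted p = 0.0167) thus rested on an embryo change of -0.45 without overlap beside an adult change of 0.16. Slc35a4, of the nucleotide-sugar transporter family, had the same pattern, with Het embryos at 181 to 268 CPM, all below the WT embryos at 281 to 325, and a difference of 0.56 (SE 0.11). Serinc2, of the serine incorporator family, was the exception of this group. Its adult change was the called one, 0.50 (SE 0.10, adjusted p = 0.0414), with Het libraries at 13.9 to 18.9 CPM and WT at 9.00 to 15.3, beside -0.19 in embryos.

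On the other side of 0, Ifngr2 (ENSMUSG00000022965, chromosome 16, 91547072 to 91565623), a subunit of the interferon gamma receptor, had the lowest p. Its E14.5 WT libraries ran from 41.5 to 59.8 CPM (median 52.3), and all Het libraries lay above them, from 65.5 to 88.7 (median 69.5). Its adult WT libraries ran from 104 to 116 CPM (median 109) and its Het libraries from 68.8 to 106 (median 90.9). Every Het adult lay below the WT mean, with a small overlap. Het F02, F04 and F07 measured 68.8 to 86.0 CPM, and Het M05, M08 and M09 95.7 to 106.4. The changes were 0.48 (SE 0.10, adjusted p = 0.00363) in embryos and -0.32 (SE 0.09, adjusted p = 0.177) in adults, and the difference was -0.80 (SE 0.13, 95% interval -1.07 to -0.53, adjusted p = 0.00646).

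Snapc1, a subunit of the complex that starts transcription of small nuclear RNAs, was 14.9 to 19.8 CPM in Het embryos and 11.2 to 13.8 in WT embryos, with no overlap. Adult medians were 36.3 CPM in both genotypes, and the difference was -0.69 (SE 0.12, adjusted p = 0.0102). Arf5, a small GTPase of the Golgi, was higher in every Het embryo (33.9 to 44.6 CPM) than in any WT embryo (24.4 to 32.6). In adults its Het libraries ran from 97.4 to 139 CPM and its WT libraries from 112 to 175, all Het below the WT mean. Het M05 and M08, at 138.8 and 136.3 CPM, lay within the WT range. Het F02, F04, F07 and M09, at 97.4 to 107.3 CPM, lay below WT F06, the lowest WT library at 111.5. The difference of Arf5 was -0.78 (SE 0.14, limma, adjusted p = 0.012).

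The other stable genes below 0 included a pair of mitochondrial proteins. Fdx1, a ferredoxin that passes electrons to mitochondrial enzymes, was low in embryos, at 1.55 to 1.92 CPM in WT and 2.55 to 3.71 in Het, without overlap. In adults Fdx1 ran from 17.2 to 21.2 CPM in WT and from 9.90 to 18.9 in Het, and its difference was -1.003 (SE 0.20, adjusted p = 0.0195). Mrps24, a protein of the mitochondrial ribosome, was 6.57 to 8.09 CPM in WT embryos and 8.14 to 12.0 in Het embryos, again without overlap, against 52.2 to 69.0 and 37.8 to 52.9 in adults. The difference of Mrps24 was -0.78 (SE 0.15, adjusted p = 0.0167). Rsrp1, an arginine- and serine-rich protein, had adult medians of 284 CPM in WT and 211 in Het, with a wide Het range of 143 to 308. The low adult Het libraries were F02, F04, F07 and M09, at 143 to 218 CPM, while M05 and M08 lay within the WT range. Its embryo medians were 11.9 and 17.4 CPM, and the difference was -0.98 (SE 0.17, adjusted p = 0.012). None of these adult changes was called.

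**Figure D2:**
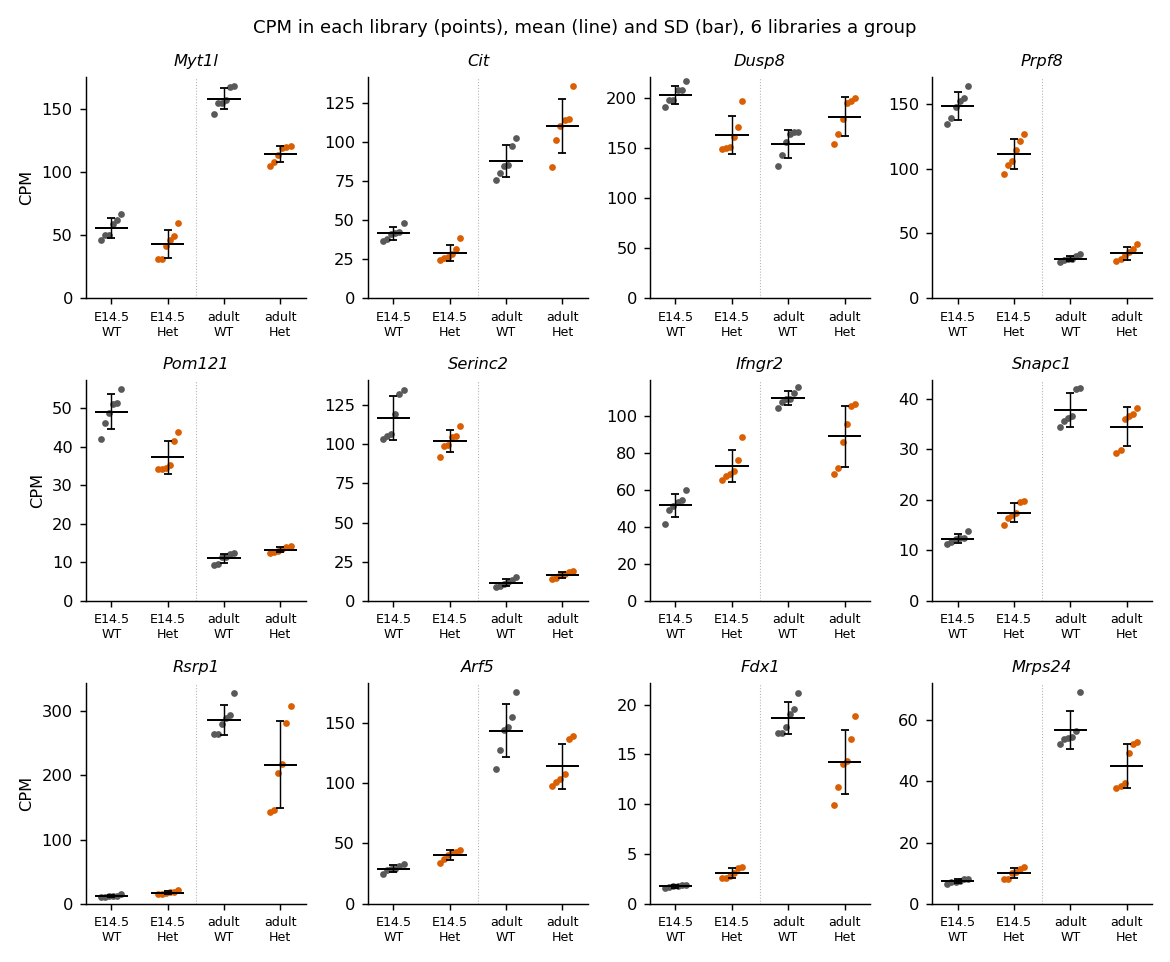
CPM in each library (points) with the group mean (line) and SD (bar), 6 libraries a group, WT in grey and Het in orange, each panel with its own axis from 0. Myt1l was lower on average in Het at both ages. Cit, Dusp8, Prpf8 and Pom121 were lower in Het embryos and higher on average in Het adults, and Ifngr2, Rsrp1, Arf5, Fdx1 and Mrps24 the reverse. Levels are not comparable between ages.

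Adult cortex led the difference in few genes. In 22 of the 133 the adult change was the larger in size, and 4 had a called adult change: Tshz1, Serinc2, Brd2 and Socs3. Tshz1 (chromosome 18, 84011627 to 84087706), a teashirt-family zinc-finger factor, ran from 7.21 to 11.4 CPM in adult WT libraries (median 9.69) and from 10.6 to 26.7 in Het libraries (median 17.1), all 6 above the WT mean. In embryos the groups covered the same range, 24.02 to 29.7 CPM in WT and 23.7 to 29.1 in Het. The adult change of Tshz1 was 0.82 (SE 0.13, adjusted p = 0.00439), the embryo change -0.03 (SE 0.14) and the difference 0.85 (SE 0.20, adjusted p = 0.032). The difference was called in 15 of the 24 fits that left out 1 library, and not after correction for GC content and length.

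Adult Tshz1 was highest in 3 Het libraries, M08, F04 and F07, at 17.99, 25.2 and 26.7 CPM. Some markers of other cell types were high in the same libraries. Sp8, a transcription factor of interneurons, measured 22.6, 24.7 and 38.7 CPM there and 5.84 to 13.3 in the other 9 adult libraries. Eomes, which marks intermediate progenitors in the embryo, measured 1.72, 2.48 and 4.26 CPM there and at most 0.781 elsewhere in adults. Dlx5, another interneuron factor, measured 19.8, 18.6 and 22.3 CPM there and up to 17.7 in the rest. Gad1, an enzyme of GABA synthesis, measured 286.8, 220.4 and 295 CPM there and 183.1 to 218.3 in the rest. Lhx6, also an interneuron factor, was not higher there, at 9.83, 9.00 and 10.1 CPM, against 9.50 to 13.4 in the rest. The summed interneuron list ran from 1097 to 1394 CPM in Het and from 1152 to 1381 in WT. The intermediate progenitor list ran from 164 to 189 and from 143 to 174. Such ranges by genotype do not show where the 3 libraries lay. The part of these cells in the Tshz1 change was not tested. Without the 3 libraries the difference of Tshz1 was 0.48 (adjusted p = 0.255), with 3 adult Het libraries left.

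Socs3 (chromosome 11, 117966079 to 117970047), a feedback inhibitor of cytokine signalling through JAK and STAT, had the largest difference of all called genes. Adult WT libraries ran from 2.08 to 4.16 CPM (median 2.86), and every Het library lay below them, from 0.829 to 1.41 (median 1.15). In embryos WT ran from 1.80 to 3.49 CPM (median 2.69) and Het from 2.31 to 5.67 (median 3.28), with overlap. The adult change was -1.03 (SE 0.21, adjusted p = 0.0448), the embryo change 0.34 (SE 0.22, adjusted p = 0.357) and the difference -1.37 (SE 0.31, adjusted p = 0.0273). The call was lost without E14.5 WT M03, E14.5 Het F07 or adult WT F04. All 4 groups were near the filter of 1 CPM, where a fold on this scale understates the change. Brd2, a BET-family reader of acetylated histones, measured 45.9 to 49.9 CPM in adult WT and 52.2 to 63.2 in adult Het, without overlap (change 0.27, adjusted p = 0.0479). It changed by -0.08 in embryos, and its difference was 0.35 (adjusted p = 0.0419), called in 9 of the 24 fits.

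The naming rule took the 10 largest differences on each side. Above 0 and not yet described were Tmem121b at 0.98, Arhgef11, a guanine nucleotide exchange factor, at 0.95, the zinc-finger gene Zscan22 at 0.81, the GTPase Rab36 at 0.66, Cnnm4, of magnesium transport, at 0.65 and the transcription factor Klf13 at 0.65. In each of these all 6 Het embryos lay below the WT mean, and in 4 of them, Tmem121b, Arhgef11, Zscan22 and Klf13, all 6 Het adults lay above it. Klf13 was the one whose Het embryos (179 to 250.3 CPM) did not overlap WT (265 to 315). The calls of Arhgef11 and Rab36 were lost without the libraries labelled Het F10 and Het M11, and again after correction for GC content and length.

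Below 0 the largest differences after Socs3 were those of Pex7 at -1.36 and Ndfip1 at -1.12. Pex7, the import receptor for a class of peroxisomal enzymes, ran from 15.3 to 36.2 CPM in adult WT (median 30.7) and from 7.76 to 30.4 in adult Het (median 14.2). Its level split by library and not only by genotype: Het M05 and M08, at 30.4 and 25.6 CPM, lay near the WT libraries, while Het F02, F04, F07 and M09, at 7.76 to 15.8, lay with WT F06 at 15.3. The low Het libraries of Rsrp1, Arf5 and Ttc9b were the same F02, F04, F07 and M09. Het M05 and M08 share a prefix of the animal identifier, and the other Het libraries share another with WT F06, F10 and M11. Pex7 was not low in WT F10 and M11, at 36.2 and 29.9 CPM. The labels do not say what the prefix stands for, and its part in this split was not tested. Ndfip1 and Nsmce3 were also lowest in Het F02, F04 and F07, with WT F06 the lowest WT library. Embryo medians of Pex7 were 2.10 CPM in WT and 3.18 in Het. Neither change of Pex7 was called on its own (adjusted p = 0.0835 in adults, 0.163 in embryos). Ndfip1, an adaptor of NEDD4-family ubiquitin ligases, had adult medians of 1189 CPM in WT and 781 in Het, and embryo medians of 32.0 and 45.2. Among the fits without 1 library the call of Ndfip1 was lost only without E14.5 Het F07, and that of Pex7 without E14.5 WT M03, E14.5 Het F07, adult WT F04 or adult WT F10. Without adult Het F02, F04 and F07 the difference of Pex7 was -0.89 and that of Ndfip1 -0.72, neither called. All 6 Het libraries of Ndfip1 lay below the WT mean in adults and above it in embryos.

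Bhlhe22, a transcription factor of cortical neurons, differed through the embryo: its WT libraries ran from 8.59 to 14.4 CPM and its Het libraries from 14.3 to 26.4 (change 0.81, adjusted p = 0.00257), while adult medians were 9.22 and 8.37 and the difference was -0.94. Nsmce3, a subunit of the SMC5/6 complex, had a difference of -0.94, the zinc-finger gene Zfp874a of -0.91, the acetyl-CoA transporter Slc33a1 of -0.91 and Ttc9b of -0.86. For Slc33a1 every Het embryo lay above the WT mean and every Het adult below it. Ttc9b in adult Het F02, F04, F07 and M09 measured 66.1 to 88.9 CPM, beside WT F06 at 88.5. In adult Het M05 and M08 it was 122.3 and 118.2 CPM, within the WT range of 88.5 to 142.2.

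Gene lists of pathways and cell types, described by their counts and medians only, held few of the 133 genes. All tested genes had a median difference of -0.01, a median E14.5 change of 0.03 and a median adult change of 0.02. The largest list median above 0 among lists with a called member was that of glycolysis. Of 17 tested glycolytic enzymes, 10 were called lower in Het embryos, against 3.8% of all tested genes, and none in Het adults. Their median changes were -0.25 and -0.06, with a median difference of 0.22. In the difference 1 was called, Pkm, against 0.55% of all tested genes called above 0. An unadjusted p under 0.05 was reached by 9, all above 0, against 8.02% of all tested genes in that direction.

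Pkm (chromosome 9, 59656368 to 59679375), the last enzyme of glycolysis, ran from 3397 to 3913 CPM in WT embryos and from 2292 to 2928 in Het embryos, without overlap. Adult libraries ran from 1673 to 1976 CPM in WT and from 1611 to 1968 in Het, nearly the same range. Its embryo change was -0.46 (SE 0.06, adjusted p = 1.52e-04), its adult change -0.08 and its difference 0.38 (SE 0.08, 95% interval 0.21 to 0.55, adjusted p = 0.023). That call was lost without E14.5 WT F04, E14.5 Het F07, adult WT F04, adult Het M08 or adult WT M11. Gapdh and Eno1 had the same shape, with embryo changes of -0.39 and -0.40, both called, and differences of 0.38 (adjusted p = 0.0603) and 0.34 (adjusted p = 0.077) that did not pass. Summed over the list, glycolytic transcripts made up 12430 to 15410 CPM in Het embryos and 16040 to 18400 in WT embryos, against 20060 to 22810 and 20170 to 22740 in adults.

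Transcripts encoded by mitochondrial DNA lay on the other side. All 11 tested genes had a difference below 0, with a median of -0.41, but none was called. An unadjusted p under 0.05 was reached by 7, against 8.45% of all tested genes in that direction. Of the 11, 6 were called higher in Het embryos, against 5.03% of all tested genes, and none in Het adults. Their median changes were 0.48 and 0.03. The difference of mt-Co3, a subunit of cytochrome oxidase, was -0.49 (SE 0.15, adjusted p = 0.0851), and that of mt-Nd2 was -0.46 (adjusted p = 0.201). Of 34 nuclear subunits of oxidative phosphorylation, 1 was called: Uqcrfs1, the Rieske subunit of complex III, with an embryo change of 0.28, an adult change of -0.21 and a difference of -0.49 (SE 0.11, adjusted p = 0.0335). All 6 Het embryos lay above and all 6 Het adults below the WT mean of Uqcrfs1, and its call held in 15 of the 24 fits that left out 1 library.

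Corepressor and chromatin genes gave 3 calls, all above 0. The Hdac4 and Kmt2d calls were lost after correction for GC content and length. Hdac1, a histone deacetylase of SIN3 and NuRD complexes, ran from 342 to 371 CPM in WT embryos and from 254 to 329 in Het embryos, without overlap, and from 33.2 to 43.2 and 37.8 to 50.5 in adults. Its difference was 0.43 (SE 0.11, adjusted p = 0.044), called in 8 of the 24 fits that left out 1 library. Hdac4, a class of deacetylase that shuttles between nucleus and cytoplasm, had a difference of 0.60 (adjusted p = 0.0462), and Kmt2d, a histone H3K4 methyltransferase, of 0.61 (adjusted p = 0.0487), called in 7 and 6 of those fits. Hdac2, the close relative of Hdac1, went the other way, with an embryo change of 0.38 that was called, an adult change of -0.06 and a difference of -0.44 (adjusted p = 0.0816) that was not, but that passed without the libraries labelled Het F10 and Het M11. Of the 11 MYT1L partners and corepressors 1 was called, of 11 histone deacetylases 2, and of 23 chromatin genes of neurodevelopmental disorders 1. The share over all tested genes was 1.18%, and the median differences were 0.07, 0.18 and 0.19. At an unadjusted p under 0.05, 1 partner lay above 0 and 3 below, among them Sap30 at -0.83, not called. These counts were 5 and 1 for the deacetylases and 4 and 1 for the chromatin genes (8.02% and 8.45% of all tested genes).

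The lists of S phase, G2 and mitosis, and G1 genes held no called difference, though Cit, in none of these lists, was called. Of 19 S phase genes 3 were called lower in Het embryos, against 3.8% of all tested genes. None was called in adults or in the difference, whose median was 0.10. Mcm7, a subunit of the replicative helicase, went from 496 to 367 CPM in embryo means and from 10.6 to 10.8 in adult means, a difference of 0.51 (SE 0.15, adjusted p = 0.0735). The 9 tested genes of G2 and mitosis had a median difference of 0.28, above that of all tested genes, and none had an unadjusted p under 0.05. Of 7 tested intermediate progenitor genes Btg2 was called, an antiproliferative gene that is also an immediate early gene. Btg2 changed by -0.21 in embryos and by 0.36 in adults, where all 6 Het libraries (37.2 to 58.8 CPM) lay above the WT mean and overlapped WT (28.2 to 42.6), and its difference was 0.57 (SE 0.12, adjusted p = 0.023). That call was lost without E14.5 Het F07, adult WT F10 or adult WT M11.

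The growth cone list and the ventral telencephalon list held 1 called gene each, both below 0. Neuronal genes outside the lists were called on both sides, among them Bhlhe22 below 0 and, named after their values were seen, the calcium sensor Ncs1 at 0.36 and Lzts1 at 0.48. Marcksl1, an actin-linked protein of growing neurites, ran from 127 to 176 CPM in WT and 156 to 232 in Het embryos, and from 40.7 to 48.8 in WT and 26.8 to 42.2 in Het adults. All 6 Het libraries lay above the WT mean in embryos and below it in adults, and the difference was -0.68 (SE 0.14, adjusted p = 0.0195), lost only without E14.5 Het F07. Ppp1r1b, known as DARPP-32 and abundant in striatal neurons, had embryo medians of 3.00 CPM in WT and 4.97 in Het, adult medians of 122 and 99.96, and a difference of -0.81 (adjusted p = 0.034), called in 15 of those fits. Of 17 growth cone genes 6 were called higher in Het embryos, against 5.03% of all tested genes, and none in adults, with Basp1 at 0.51 and Tmsb4x at 0.41. A difference below 0 at an unadjusted p under 0.05 was seen in 6 of the 17, against 8.45% of all tested genes.

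The layer, presynaptic and postsynaptic lists held no called difference. Upper-layer genes had median changes of 0.28 in embryos and 0.12 in adults over 10 tested genes, and deep-layer genes of 0.20 and 0.13 over 10. Tbr1, which specifies deep-layer neurons, changed by 0.55 in embryos, which was called, and by 0.15 in adults, a difference of -0.40 (adjusted p = 0.188). Of 21 presynaptic and 16 postsynaptic genes none was called, with median differences of -0.04 and 0.04. The lowest p among them was that of Camk2a, a kinase of mature synapses, with a difference of 0.91 (SE 0.24, adjusted p = 0.0731). Cholesterol synthesis (16 genes), the proteasome (27) and cytosolic ribosomal proteins (51) had no called gene and median differences of 0.04, 0.08 and 0.01.

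The remaining lists had no called difference beside those already given. Of the signalling lists, Wnt pathway genes (17 tested) had a median difference of 0.11 with 4 above 0 and none below at an unadjusted p under 0.05 (8.02% and 8.45% of all tested genes), Notch pathway genes (13) of 0.15, and axon guidance genes (20) of 0.10. Wnt7a, a secreted ligand, changed by -0.16 in embryos and 0.41 in adults, a difference of 0.57 (SE 0.22, adjusted p = 0.172). Genes of serine and folate metabolism and other ATF4 targets (12) had a median difference of 0.16. Of these, 2 were called lower in Het embryos, against 3.8% of all tested genes. Voltage-gated channel genes (15) stood at 0.10 in embryos and 0.11 in adults. Radial glia (15), early neuronal (19) and oligodendrocyte genes (6) had median differences of -0.01, -0.11 and 0.09, GABAergic interneuron genes (10) of -0.12, G1 cyclin and CDK inhibitor genes (15) of -0.09 and heat shock genes (11) of -0.16. Beside Btg2 and Ppp1r1b, already given, no gene of the immediate early list (8) or the ventral telencephalon list (5) was called. Cdkn1b, an inhibitor of cell cycle entry, went from 45.4 to 82.5 CPM in embryo means, a called change of 0.64, beside -0.07 in adults. Het M11 and M01 were highest, at 140.2 and 107.5 CPM, and the other Het embryos, at 51.1 to 71.96, overlapped WT at 35.5 to 59.7. With a spread estimated for each age alone, the embryo change was not called (limma, adjusted p = 0.16). The difference of Cdkn1b, -0.71 (SE 0.24, limma, adjusted p = 0.145), did not pass.

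**Figure D3:**
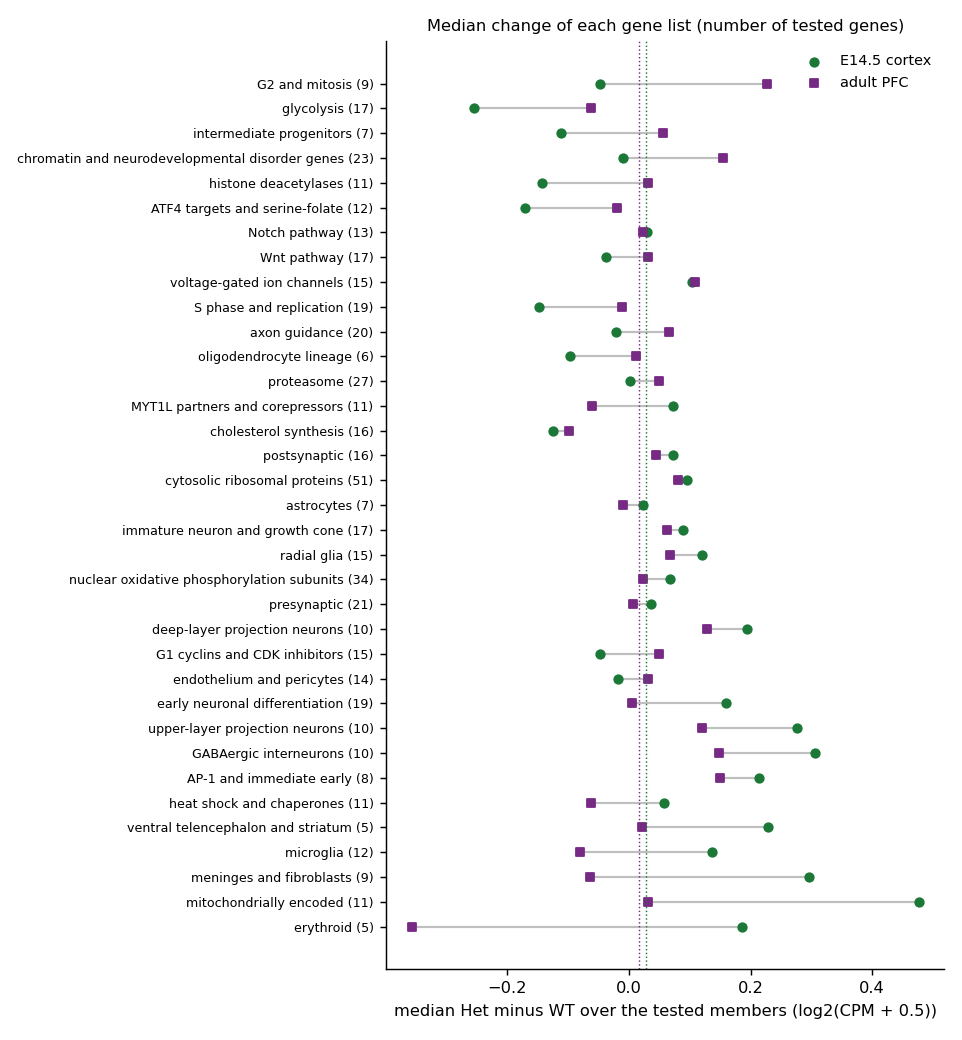
Median Het minus WT of each gene list with at least 5 tested genes, in log2(CPM + 0.5), at E14.5 (green circles) and in adult PFC (purple squares), with the number of tested genes in brackets and dotted lines at the medians of all tested genes (0.03 and 0.02). Lists are ordered by their median difference; glycolysis (-0.25 and -0.06) stands near the top and mitochondrially encoded genes (0.48 and 0.03) near the bottom, with the widest gap among lists of more than 10 genes.

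Markers of tissues beside the cortex were measured as well. Of 9 tested meningeal and fibroblast genes, 2 were called higher in Het embryos, against 5.03% of all tested genes. All 9 had a difference below 0 (median -0.27), and none was called in the difference. Their summed level was 301 to 515 CPM in Het and 201 to 432 in WT embryos, against 79.5 to 113 and 88.7 to 119 in adults. Choroid plexus genes summed to 3051 to 5270 CPM in Het and 1436 to 4067 in WT embryos, mostly Ttr, which was at 0 in the adult library labelled WT M11 and failed the filter in adults. The 3 tested choroid plexus genes had a median difference of -0.28, and Sostdc1 was called higher in Het embryos. Erythroid genes summed to 7115 to 12580 CPM in Het and 5612 to 10510 in WT embryos, with medians of 9525 and 8108, and to 318 to 503 in Het and 333 to 576 in WT adults, with medians of 338 and 477. All 5 tested had a difference below 0, with a median of -0.51 and none called. Their median change was -0.36 in adults and 0.19 in embryos. In adults 2 of 5 had an unadjusted p under 0.05, against 9.72% of all tested genes in either direction. Microglial genes (12) had a median difference of -0.25, astrocyte genes (7) of -0.002 and endothelial genes (14) of -0.10, none called. The genotypes overlapped in each of these tissue-marker sums, and the part of these tissues in the differences above was not tested.

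The called genes also differed in base composition. Genes called above 0 had a median GC content of 53.5% in their longest transcript and genes called below 0 of 45.9%, against 49.5% for all tested genes. Over 10 equal groups of tested genes ordered by GC, the median E14.5 change went from 0.15 in the lowest group to -0.05 in group 8 and 0.05 in the highest, while the adult change went from 0.05 to -0.02. Within libraries, the median level of the lowest group minus that of group 7 was 0.03 to 0.29 in Het embryos and -0.09 to 0.07 in WT embryos. In adults it was -0.06 to 0.09 in Het and -0.07 to 0.06 in WT. After each library was corrected for a smooth trend on GC content and length, 118 genes were called, 93 of them among the 133.

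**Figure D4:**
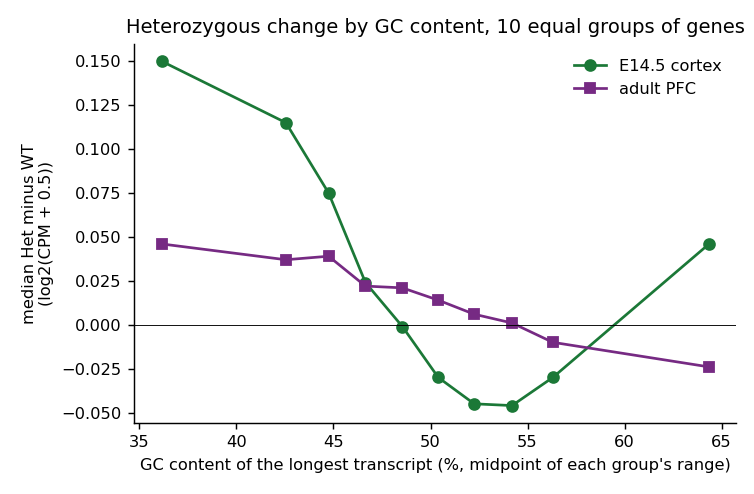
Median Het minus WT in log2(CPM + 0.5) over 10 equal groups of tested genes ordered by GC content of the longest transcript (x axis, percent, midpoint of each group's range), for E14.5 (green) and adult PFC (purple). The E14.5 line falls from 0.15 to -0.05 and returns to 0.05 in the top group, and the adult line falls from 0.05 to -0.02.

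The number of called genes depended on single libraries. It was 19 without the library labelled E14.5 Het F07 and 289 without E14.5 Het M07. For the other embryo libraries that moved it by more than 1.5 times, it was 32 without WT F04, 51 without Het M01, 59 without WT F12, 63 without WT F09 and 83 without Het F02. Among adult libraries it was 21 without WT F04, 32 without WT M11, 35 without WT F10, 36 without Het M08, 52 without Het F04, 54 without Het F07, 55 without Het F02, 67 without WT M03 and 80 without Het M05. In fits added after the data were seen, no gene was called (limma) without the adult Het libraries F02, F04 and F07, where 1212 genes still had an unadjusted p under 0.05, and 13 were called without adult Het M08, F04 and F07, 10 of them among the 133. Each of these fits leaves 3 adult Het libraries, and in both all 133 genes kept their direction. In the first of them all adult Het libraries are male, so the adult sex term rests on the WT libraries alone. Without both libraries whose Y-linked gene went against the label, 218 genes were called, 84 above and 134 below 0, and 112 of the 133 were among them. Of the genes named here that were not called with all libraries, Hdac2, Tbr1, Tmsb4x, Vamp2, Snap25, mt-Nd2, Lhx6 and Aif1 were called then. The embryo libraries named first stood at the ends of a common axis: the median centred level of genes called above 0 minus that of genes called below 0 was -1.05 in E14.5 Het F07 and -0.52 in E14.5 Het M07, with the other Het embryos between, and -0.18 to 0.11 in WT embryos. In adult Het libraries it was 0.12 to 0.45 and in adult WT -0.11 to 0.17. For genes called below 0 alone, the median was -0.297, -0.228 and -0.239 in adult Het F02, F04 and F07. It was -0.080, -0.132 and -0.061 in adult Het M05, M08 and M09, and -0.079 to 0.058 in adult WT. For genes called above 0 alone, it was 0.060 to 0.174 in adult Het and -0.078 to 0.108 in adult WT. The genes were chosen on these libraries, so those levels describe them and test nothing.

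**Figure D5:**
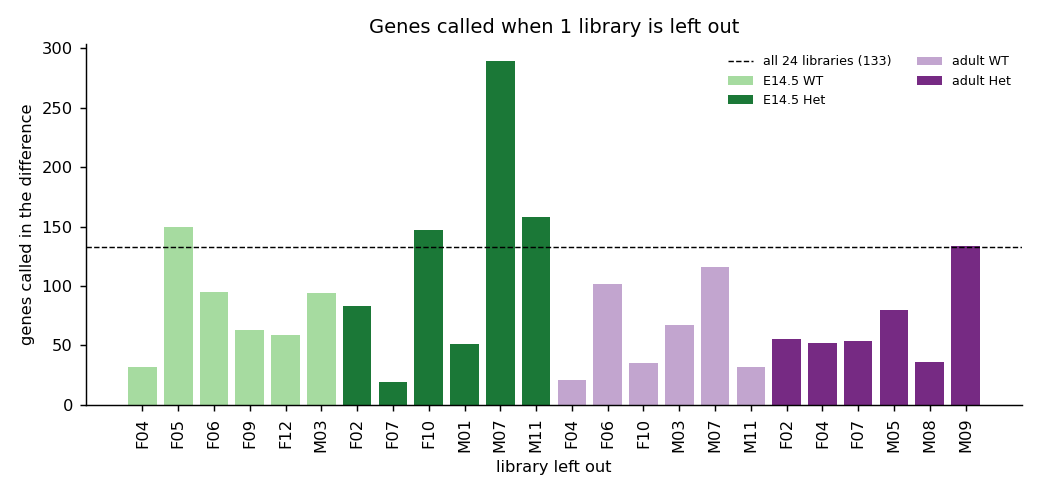
Number of genes called in the difference (y axis) when the library named on the x axis is left out, coloured by group, with a dashed line at the 133 of all 24 libraries. The counts run from 19 to 289, both ends set by a Het embryo.

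Ranges without overlap were counted over all tested genes, with no further model fitted. The deposited values had already been adjusted from the residuals of a first fit, which can narrow the spread within a group. Every Het embryo lay above every WT embryo in 145 genes (1.29%) and below in 161 (1.43%), in all 2.72% of tested genes. Every Het adult lay above every WT adult in 41 (0.364%) and below in 33 (0.293%), in all 0.657%. Among the 133 called genes these counts were 25, 31, 2 and 3, where the calls rest on the same values. No gene separated at both ages in opposite directions. Named after their values were seen, the adult genes among the called ones were Pom121 and Brd2 above WT and Socs3, Ube2s and Vps51 below it.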

How the data were processed

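RNA libraries of 6 WT and 6 Het E14.5 cortices and 6 WT and 6 Het adult PFC samples were analysed. Per the labels' protocols, total RNA came from a Zymo kit and libraries from the SMARTer Ultra Low RNA kit. The submitters' processing notes name mm10 and the tools Trimmomatic, Bowtie2, STAR and HTSeq, without versions. Whether counting used strand was not given in the sources used here, so reads shared by overlapping or near-identical genes are uncertain.

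For each age the authors deposited log2 CPM values after RUVr, which removes variation estimated from the residuals of a first fit. From the values, these are log2 CPM with a prior count after upper-quartile scaling, and 100% inverted to whole numbers in each library (tolerance 0.01). The whole numbers were adjusted before deposit and are not raw counts, so the sequencing depth is unknown; their totals were 27827467 to 30811856 in E14.5 libraries and 19601294 to 21275162 in adult ones. RUVr left 2 directions with almost no variance among the 16 E14.5 libraries and 1 among the adult ones, which take up degrees of freedom that the tests do not count.

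CPM was recovered, and log2(CPM + 0.5) was fitted with limma 3.58.1 in R 4.3.3 (lmFit, contrasts, eBayes with trend and robust): 24 libraries, 4 group means and sex as labelled within each age, 18 residual degrees of freedom. Genes needed at least 1 CPM in at least 6 libraries of each age. P-values were adjusted by Benjamini-Hochberg over all tested genes, and called means an adjusted p under 0.05. The method was tested on simulated data with independent noise for each gene. That test does not cover variation that genes share within a library, or the directions that RUVr removed. Separate animals are the replicates. The labels do not say whether they were litter mates, or what the prefix of the animal identifier stands for. Adult Het M05 and M08 shared a prefix with WT M03 and M07. The other adult Het libraries shared another with WT F06, F10 and M11, and adult WT F04 had its own. At E14.5 each prefix held both genotypes. Mean residual correlation was 0.0359 within and -0.0289 between prefixes in adults, and -0.0452 and 0.0563 at E14.5. RUVr can remove variation that such libraries share, so these values cannot decide whether the prefix pairs libraries. With the prefix as a block, 21 genes were called in the difference.

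Of the joined genes 13066 matched GENCODE vM21 on GRCm38, which gave coordinates, GC content and length. Promoters came from RefSeq. Named genes were Myt1l, Myt1 and St18, the 10 largest called differences in each direction, reversed genes, genes called the same way at both ages, and the 3 lowest p of each of 38 lists (633 entries). The comparison and the lists were chosen with earlier results of these data known. Alternatives covered the pseudocount, filter, scaling, weights, spread, sex, added Hom libraries, RUVr directions, prefix, GC content and each library. Figures used matplotlib 3.10.9. A few genes are not reported here.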

Additional observations from a re-analysis of the deposited data

Results flagged for a closer look

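These genes had a Het change that differed between the ages by a test of the difference itself (limma, Benjamini-Hochberg adjusted p under 0.05). They comprise the 10 largest differences on each side, the called members of the gene lists and the genes called in every fit that left out 1 library. Values are adult minus E14.5 on the log2(CPM + 0.5) scale.

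Above 0 the differences were 0.977 for Tmem121b, 0.948 for Arhgef11, 0.890 for Cit, 0.848 for Tshz1, 0.807 for Zscan22, 0.690 for Pom121, 0.686 for Serinc2, 0.662 for Rab36, 0.655 for Cnnm4 and 0.649 for Klf13. Further genes above 0 were Prpf8 at 0.617, Kmt2d at 0.610, Hdac4 at 0.603, Dusp8 at 0.569, Btg2 at 0.567, Slc35a4 at 0.558, Hdac1 at 0.434 and Pkm at 0.381. Of these, Tshz1 and Serinc2 had a called adult change.

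Below 0 the differences were -1.37 for Socs3, -1.36 for Pex7, -1.12 for Ndfip1, -1.003 for Fdx1, -0.98 for Rsrp1, -0.94 for both Nsmce3 and Bhlhe22, -0.91 for both Zfp874a and Slc33a1, and -0.86 for Ttc9b. Smaller ones were -0.81 for Ppp1r1b, -0.80 for Ifngr2, -0.78 for both Arf5 and Mrps24, -0.69 for Snapc1, -0.68 for Marcksl1 and -0.49 for Uqcrfs1.

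In 9 of the 152 groups of 6 libraries examined for these genes and the Myt1l family, 1 library stood apart from the other 5. About 1 in 20 groups does so by chance. In adult WT these were M03 for St18 (3.55 CPM) and for Hdac1 (33.2 CPM, the lowest), F06 for Pex7 (15.3 CPM, the lowest) and for Ndfip1 (765.9 CPM, the lowest), and F10 for Mrps24 (69.0 CPM, the highest). At E14.5 they were WT F09 for Klf13 (315 CPM), Het M07 for Btg2 (312 CPM), Het M11 for Ppp1r1b (2.50 CPM, the lowest) and Het F07 for Hdac4 (52.1 CPM, the lowest).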

How the results depend on the processing

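Direction held for each of the 133 called genes under every alternative in which it was tested. How many genes passed did not: 133 fell to 69 with voom weights, 58 in libraries labelled female, 35 with Hom libraries and the RUVr directions, 21 with the identifier prefix as a block and 10 with neither trend nor robust fitting, and rose to 218 without the libraries labelled E14.5 Het F10 and M11. The cause was not tested. With 3 adult Het libraries left, it was 13 without M08, F04 and F07 and 0 without the females F02, F04 and F07, and the 9 adult genes became 0 in both; 770 and 308 had an unadjusted adult p under 0.05. Leaving out 1 library gave 19 to 289. Of the 12 genes named as stable, none stayed called without the adult Het females and 8 without M08, F04 and F07. All stayed called with the RUVr directions, 11 with the prefix block and 11 with voom weights. In libraries labelled female 10 stayed called, and with neither trend nor robust fitting 7. The libraries labelled female include E14.5 Het F10, whose Ddx3y went against its label.

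The 995 genes of the embryo comparison became 395 with a spread for each age alone, and 320 to 1407 when 1 library was left out. The 9 adult genes became 14 with a pseudocount of 2, 15 with a filter of 5 CPM, 44 with a spread for each age alone, 81 in libraries labelled female, 21 with Hom libraries, 18 without E14.5 Het F10 and M11, and 2 each without the sex covariate, with the RUVr directions, with the prefix block and with neither trend nor robust fitting. Leaving out 1 library gave 2 (E14.5 Het F02, WT F05 or WT F09, adult WT F04 or WT F10), 3 (adult Het M08 or F07), 4 (E14.5 WT F04, adult Het F02), 5 (E14.5 WT F06, adult WT M11), 15 (E14.5 Het M07), 16 (E14.5 Het M11), 20 (adult Het M05, WT M07 or Het M09) or 26 (adult WT M03).

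No gene was reversed, but 7 were in libraries labelled female, 1 with Hom libraries and 0 to 1 when 1 library was left out. Genes called the same way at both ages numbered 2 with voom weights, 1 in libraries labelled female, 1 with Hom libraries, 1 without E14.5 Het F10 and M11, and 0 to 1 when 1 library was left out. The voom fit with TMM scaling was not run, and the one given, added after the data were seen, has no TMM. No paired analysis was possible because the numbers in the labels are animal numbers, and the prefix block stands in their place. Sequencing depth is unknown, so counting error cannot be given, and the smallest difference called was 0.332.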

Other observations

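Genes called in the difference that belong to no list above are given here as values (limma, Benjamini-Hochberg adjusted p under 0.05). They were picked after their values had been seen, for what their products do, and no group of them was tested. Several encode parts of the cytoskeleton and its motors. The tubulins Tuba1b, Tuba4a and Tubb4b changed by -0.38, -0.37 and -0.36 in Het embryos and by 0.02, -0.03 and -0.02 in Het adults, with differences of 0.40, 0.34 and 0.34. Dync1h1, the heavy chain of cytoplasmic dynein, changed by -0.47 and 0.14, a difference of 0.61. The actin-binding protein Dbn1, drebrin, had 0.36 in embryos, -0.17 in adults and a difference of -0.54, and Bin1, which bends membranes, had 0.69, -0.16 and -0.84. Membrane traffic gave Rab10 at 0.46 and -0.03 and Rab6a at 0.44 and -0.13, with differences of -0.49 and -0.57, and the coatomer subunit Copg1 at -0.50 and -0.12 with a difference of 0.39.

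Mitochondrial proteins beside Fdx1 and Mrps24 were on both sides of 0. Mff, the receptor of the fission protein DRP1, had a difference of -0.51 (SE 0.11), Rhot1, a GTPase of mitochondrial transport, of -0.55, the import receptor Tomm20 of -0.37 and the ribosomal proteins Mrps26 and Mrpl37 of -0.62 and -0.37. Tufm, the elongation factor of mitochondrial translation, had a difference of 0.43. Among transcriptional regulators Mn1 had -0.31 in embryos, 0.31 in adults and a difference of 0.61, Bhlhe40 a difference of 0.57, Lmo4 of -0.51 and Lmo1 of -0.63. Gabra4, a GABA-A receptor subunit, had 0.46 in embryos, -0.06 in adults and a difference of -0.52.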
